A study of Mus musculus with 20 samples.

Results

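Ataxin-7 is a subunit of SAGA, a large nuclear complex that modifies histones at genes being transcribed. The 10 genes described here are Atxn7 itself, its paralogues Atxn7l1, Atxn7l2, Atxn7l3 and Atxn7l3b, and the SAGA genes Usp22, Eny2, Kat2a, Kat2b and Supt20. They were taken by name and not by a limit on their values, though with earlier results of these data known. Each symbol matched 1 gene of the 55401 in the count table, 21897 of which are protein-coding. All 10 passed the filter on low counts in every comparison.

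SAGA works through separate modules. In its deubiquitinase (DUB) module the enzyme USP22 removes ubiquitin from histone H2B, and it is active only when bound to ATXN7L3 and ENY2, while ATXN7 ties this module to the rest of the complex. In the acetyltransferase (HAT) module KAT2A, also called GCN5, or its close relative KAT2B, also called PCAF, acetylates histone H3. SUPT20 belongs to the structural core. Spinocerebellar ataxia type 7 (SCA7) arises from an expanded CAG repeat in the coding sequence of ATXN7, which lengthens a polyglutamine tract, and Purkinje cells (PCs) of the cerebellum are among the neurons most affected.

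Polyadenylated cerebellar RNA of 20 C57BL/6J mice was sequenced, with 1 cerebellum per library. SCA7 mice were 140Q/5Q knock-in animals, which carry the long repeat in 1 of their Atxn7 copies. In the early set, labelled 9w, 3 of the WT mice had received AAV-shA4 and 3 were untreated. The late set, labelled 25w, comprised 4 untreated WT mice and 10 SCA7 mice, of which 5 had received AAV-shSCR and 5 had received AAV-shA4. AAV-shA4 is an AAV PHP.eB vector that makes the A4 short hairpin RNA, aimed at expanded CAG repeats, from an H1 promoter together with eGFP from a CMV promoter, and AAV-shSCR makes a scrambled hairpin. Per the methods, untreated mice received saline. No untreated SCA7 mice and no WT mice given AAV-shSCR are among these samples, so genotype and vector cannot be told apart in the comparisons of SCA7 with WT mice. Nor can labelled time and experiment be told apart between the early and the late set. The sample labels do not say from when the weeks are counted, so they are not taken as ages here. The paper gives the times of both sets as weeks after injection.

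Between 31465586 and 54570503 reads per library were counted on genes. In the early set the depth of AAV-shA4-treated mice (36245752 to 39208298 reads) lay below that of untreated mice (47455917 to 49212593). Over the 32 pairs of mice within a group, counts differed beyond sampling noise (chi-squared of 4.73 to 25.1 for each degree of freedom), and the spread between mice thus sets the precision. The labelled tissue was checked with markers. The granule cell gene Cbln3 was measured at 1183 to 1858 CPM (read counts on a common library size, normalized across the 20 libraries) and the PC gene Calb1 at 750.0 to 1403 CPM, while the forebrain gene Emx1 did not exceed 0.328 CPM. The forebrain marker Neurod6 was at 6.55 to 9.53 CPM.

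Because the hairpin is aimed at CAG repeats, the CAG runs of the 10 genes were read from the sense strand of the annotated protein-coding transcripts. The mouse reference Atxn7 holds a run of 5 CAG in exon 2, in the reading frame, which is the short allele of the WT mice. Supt20 holds the longest run of the 10 genes, 7 CAG in frame in exon 26, and Kat2a has 3 in exon 1. The stretches below (GRCm38, 5′ to 3′, CAG run in capitals) show these runs, which would each be read as glutamines.
Atxn7, chr14:14013149-14013177, plus strand: cgcccggCAGCAGCAGCAGCAGccacagc
Supt20, chr3:54727645-54727673, plus strand: ctttCAGCAGCAGCAGCAGCAGCAGcaac
Kat2a, chr11:100712155-100712183, minus strand: tggcctgagcCAGCAGCAGcgcgctagcc
Usp22 also has a run of 3, outside its coding sequence, and the longest runs of the other genes were of 1 or 2 CAG. Of 21901 genes with a protein-coding transcript, 1.52% hold a run of at least 5 CAG, 0.603% a run of at least 7 and 13.5% a run of at least 3. The expanded allele is not in this reference, and the deposited counts add the reads of both alleles.

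The 10 genes were expressed at median levels of 3.46 to 53.8 RPKM, and each varied little between mice. Levels of different genes are compared here as RPKM, that is CPM per kilobase of annotated exon. Over the 20 libraries the median was highest for Atxn7l3b (53.8 RPKM, range 50.7 to 59.7), a cytoplasmic paralogue of Atxn7l3, and for Usp22 (50.5 RPKM, range 47.5 to 56.7), whose ranges overlap. Atxn7l3 followed at 40.8 RPKM (range 37.2 to 44.7), with no overlap to either neighbour. The acetyltransferases Kat2a (19.5 RPKM, range 18.5 to 20.6) and Kat2b (19.2 RPKM, range 17.5 to 20.4) overlapped each other. So did Eny2 (11.5 RPKM, range 10.4 to 13.0) and Supt20 (11.3 RPKM, range 9.71 to 12.9). Atxn7 had a median of 5.95 RPKM (range 4.72 to 6.69), followed by Atxn7l2 at 4.06 RPKM (range 3.60 to 4.90) and Atxn7l1 at 3.46 RPKM (range 3.19 to 3.98), with overlap between neighbours in this order. The last 3 genes are paralogues that can take the same place in SAGA. Atxn7 made up a median of 38.5% of their summed RPKM in untreated WT mice at 9w and 44.7% in untreated WT mice at 25w. Kat2b stood at 0.914 to 1.03 times the RPKM of Kat2a in the medians of the 5 groups.

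**Figure D1:**
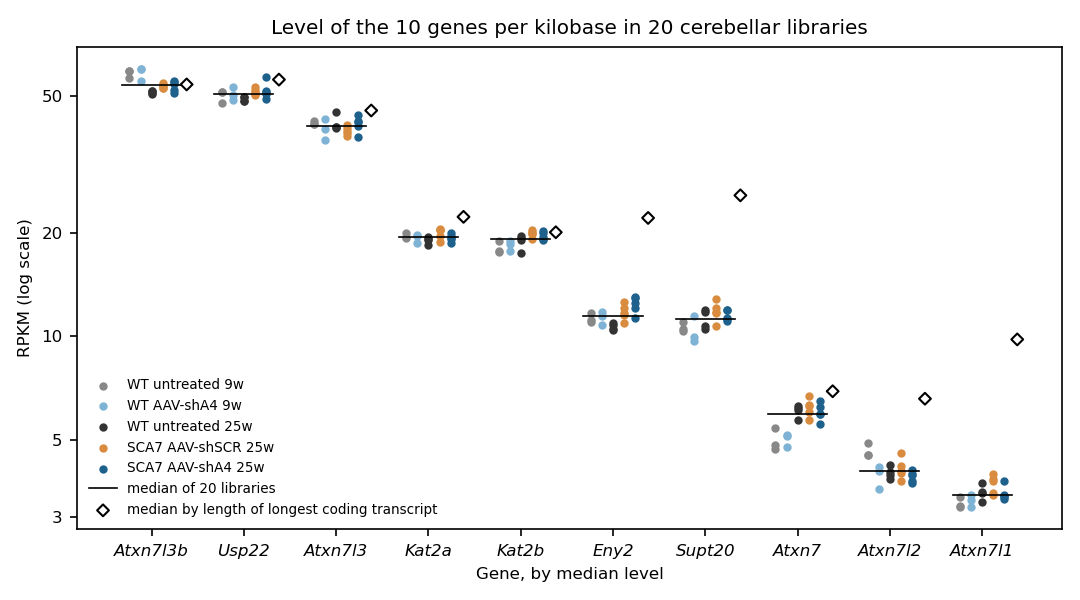
Level of the 10 genes in RPKM on a log axis, ordered by the median over 20 libraries (line), with a point for each mouse coloured by group and a diamond for the median when the length of the longest coding transcript is used. Atxn7l3b and Usp22 have medians above 50 RPKM and Atxn7, Atxn7l2 and Atxn7l1 medians of 5.95 RPKM or less, while the diamonds of Supt20, Eny2 and Atxn7l1 lie well above their points.

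This order depends in part on the length used. By the longest protein-coding transcript, a choice made after the values were seen, the medians of Supt20 (25.7 RPKM), Eny2 (22.1) and Atxn7l1 (9.80) moved the most, and Atxn7l1 came above Atxn7 (6.93). By this length Usp22 (55.6 RPKM) also came above Atxn7l3b (53.9), Supt20 above Kat2a (22.2) and Kat2b (20.1), and Eny2 above Kat2b. Among all 15095 protein-coding genes tested in the 20 libraries, the mean RPKM of Atxn7 lay at the 51.3 percentile and that of Atxn7l3b at the 95.7 percentile. Over the 20 libraries the highest CPM of a gene was between 1.11 times (Kat2a) and 1.42 times (Atxn7) its lowest.

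Some reads of these genes cannot be assigned with certainty. Of the 49-base words in its transcripts, Kat2b shares 7.57% with its pseudogene Kat2b-ps on the same strand. Whether the counting used the strand is not given in the sources used here. On the opposite strand Atxn7l3b shares 12.7% of its words with Gm26596 and Supt20 shares 9.60% with Exosc8 and Gm21958. Eny2 shares 4.67%, with Nudcd1 on the opposite strand and with a family of predicted small genes on the same strand, and Atxn7l1 shares 1.44% with the antisense gene Atxn7l1os2. For Atxn7 (ENSMUSG00000021738, chromosome 14, 13961440 to 14107302) the share was 0.0372%, and Atxn7l2, Atxn7l3, Usp22 and Kat2a shared none.

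Atxn7 RNA was the member that separated the early from the late libraries. It was measured at 38.7, 43.1 and 37.6 CPM in untreated WT mice and at 38.2, 41.3 and 41.0 CPM in AAV-shA4-treated WT mice of the early set. In the late set it was at 45.7, 50.2, 49.3 and 48.8 CPM in untreated WT mice, at 45.6, 53.4, 48.1, 50.5 and 49.98 CPM in AAV-shSCR-treated SCA7 mice and at 44.4, 47.5, 49.6, 47.5 and 51.7 CPM in AAV-shA4-treated SCA7 mice. Each of the 14 late libraries lay above each of the 6 early libraries, while the 3 late groups overlapped one another, as did the early groups. Of the 10 genes only Atxn7 separated the sets in this way, as did 6.78% of all 15095 genes tested.

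AAV-shA4 was made to lower the product of the expanded Atxn7 allele, so the first question is whether Atxn7 RNA, both alleles together, differed with it. In SCA7 mice Atxn7 reached a mean of 49.5 ± 2.92 CPM (SD, n = 5) after AAV-shSCR. After AAV-shA4 the mean was 48.1 ± 2.70 CPM (SD, n = 5). The difference was -2.80% with a 95% interval of -9.16% to 4.01% (adjusted p = 0.842, edgeR's quasi-likelihood test), less than the spread between mice, and an exact permutation test gave p = 0.460 (two-sided). A fall of the summed RNA by more than 9.16% thus lies outside this interval. Against untreated WT mice (48.5 ± 1.96 CPM, SD, n = 4), the log2 fold change was 0.032 (interval in percent -4.80% to 9.82%, adjusted p = 0.724) with AAV-shSCR and -0.0089 (-7.47% to 6.74%, adjusted p = 0.934) with AAV-shA4. In WT mice at 9w, where both alleles carry the short repeat, the difference between treated and untreated mice was 0.723% (interval -8.86% to 11.3%, adjusted p = 0.964). Protein was not measured in these libraries, and in bulk RNA fewer cells of a type and less RNA per cell cannot be told apart. By western blot the paper found less mutant ataxin-7 protein in the cerebellum of SCA7 mice killed sooner after AAV-shA4. It describes mismatched hairpins of this kind as acting in a microRNA-like way, with cleavage of the target RNA weakened or prevented. It also found granule neurons, by far the most numerous cerebellar neurons, rarely transduced. Its blots were likewise made from extracts of the cerebellum. The part of either point in the Atxn7 RNA values was not tested.

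**Figure D2:**
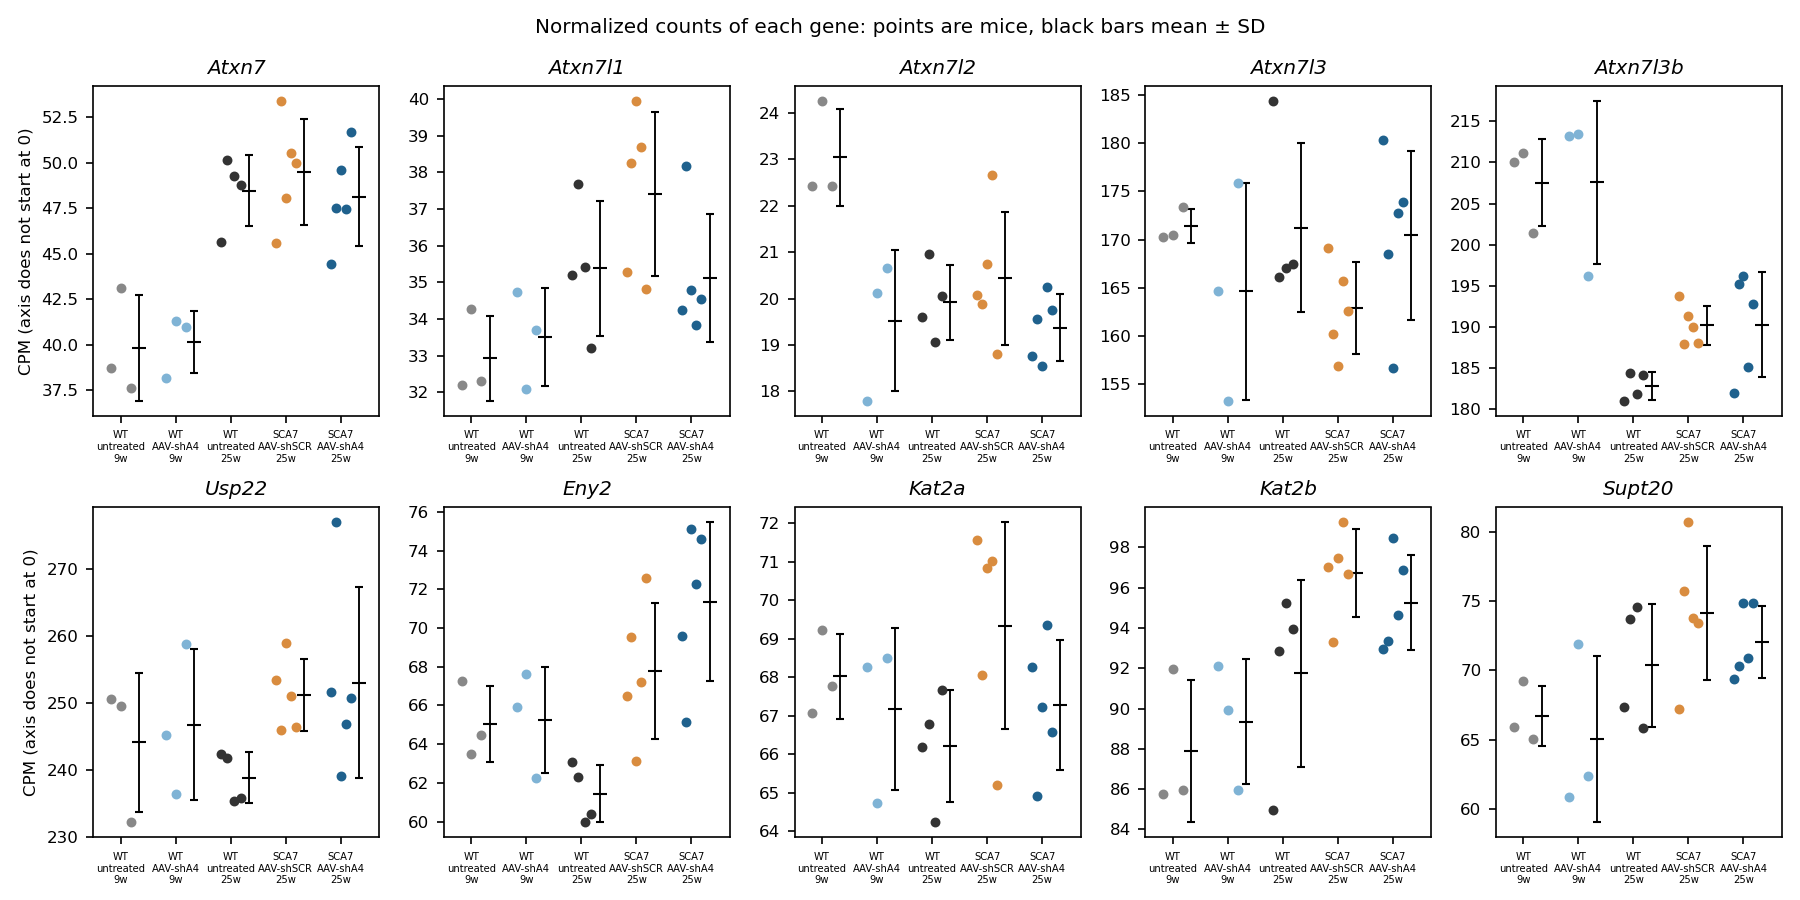
Normalized counts (CPM, axes not starting at 0) of each of the 10 genes in the 5 groups, with a point for each mouse and black bars for the mean ± SD. In the Atxn7 panel the 6 early mice lie at 37.6 to 43.1 CPM and the 14 late mice at 44.4 to 53.4 CPM, and in the Eny2 panel the 4 untreated WT mice at 25w lie below all SCA7 mice. Of all genes tested, 16.8% with AAV-shSCR and 13.4% with AAV-shA4 did not overlap with these WT mice.

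The largest difference of these genes was that of Atxn7 between untreated WT mice at 25w and at 9w. Atxn7 was 21.7% higher at 25w (interval 11.8% to 32.3%), a log2 fold change of 0.28 (SE 0.058, adjusted p = 0.00149, edgeR). Two-sided exact permutation gave p = 0.0286, the smallest that 4 against 3 mice allow. Atxn7l3b was lower at 25w, with 181.04, 184.4, 181.9 and 184.1 CPM against 210.1, 211 and 201 CPM, which do not overlap. Its log2 fold change was -0.18 (SE 0.034, adjusted p = 0.000572). Atxn7l2 was also lower, with 19.6, 20.97, 19.1 and 20.1 CPM against 22.4, 24.3 and 22.4 CPM, again without overlap. Here the log2 fold change was -0.21 (SE 0.063, adjusted p = 0.0185), and without untreated WT mouse 2 at 9w or mouse 3 at 25w it no longer passed (-0.17, adjusted p = 0.0925, and -0.19, adjusted p = 0.0566). AAV-shA4-treated WT mice at 9w were at 17.8, 20.1 and 20.7 CPM of Atxn7l2, which overlaps the untreated WT mice at 25w.

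So 3 of the 10 genes passed an adjusted p of 0.05 between the time points, 1 higher and 2 lower, where 24.2% of all genes tested did (12.2% higher, 12% lower), a like share. None passed with a fold change above 1.3, a limit that 5.27% of all genes passed, and the same 3 had an unadjusted p under 0.05, against 36.2% of all genes. Eny2 did not pass (log2 fold change -0.082, adjusted p = 0.237), although its 4 late values (60.0 to 63.1 CPM) lay below the 3 early ones (63.5 to 67.3 CPM). In all, the groups did not overlap for 4 of the 10 genes, against 33.4% of all genes. For the remaining 6 genes (Atxn7l1, Atxn7l3, Usp22, Kat2a, Kat2b and Supt20) the log2 fold change ranged from -0.039 in Kat2a to 0.10 in Atxn7l1, and none of these passed. In the same comparison 5 of 5 oligodendrocyte markers passed as lower at 25w, with a summed level of 5118 to 6094 CPM against 7228 to 7451 CPM, and 3 of 5 granule cell markers did, at 4086 to 4889 CPM against 5034 to 5588 CPM. Of the markers of Bergmann glia and astrocytes 1 of 5 passed as lower, and 1 of 5 microglia and 1 of 8 PC markers passed as higher. Their part in the differences of Atxn7, Atxn7l2 and Atxn7l3b was not tested.

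Eny2 was the member whose RNA rose in SCA7 mice relative to untreated WT mice of the same set. ENY2 is a small subunit of the DUB module that is also part of TREX-2, a complex at nuclear pores that couples transcription to mRNA export. Its normalized counts were 63.1, 62.3, 60.0 and 60.4 CPM in untreated WT mice at 25w. They were 66.5, 69.5, 63.2, 67.2 and 72.6 CPM in AAV-shSCR-treated and 69.6, 65.1, 75.1, 72.3 and 74.6 CPM in AAV-shA4-treated SCA7 mice. All 10 SCA7 mice lay above the 4 WT mice, the nearest pair being 63.2 and 63.1 CPM. Taken by group, 16.8% of all genes tested with AAV-shSCR and 13.4% with AAV-shA4 also had no overlap with these WT mice, in either direction. The share of all genes for both SCA7 groups together was not counted. The WT mice at 9w, at 62.3 to 67.6 CPM in both groups together, lay within the range of the other libraries.

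With AAV-shSCR the increase of Eny2 was 10.4% (interval 3.40% to 17.8%), a log2 fold change of 0.14 (SE 0.044, adjusted p = 0.0391, edgeR), and a two-sided exact permutation test gave p = 0.0159. With AAV-shA4 it was 16.1% (interval 8.77% to 23.9%), a log2 fold change of 0.22 (SE 0.044, adjusted p = 0.00344, edgeR), with the same exact permutation p of 0.0159. Both comparisons use the same 4 WT mice. The first call was lost in 7 of 9 analyses with a mouse left out (mice 1, 2, 4 and 5 with AAV-shSCR and WT mice 2, 3 and 4; log2 fold change 0.12 to 0.15 there, adjusted p over all 9 analyses 0.0185 to 0.10). The second held in 9 of 9 (adjusted p 0.000639 to 0.0152). Between the SCA7 groups Eny2 differed by 5.18% (interval -1.07% to 11.8%, adjusted p = 0.664), which is within the spread between mice. Nudcd1, whose exons overlap those of Eny2 on the opposite strand, had log2 fold changes of -0.044 (adjusted p = 0.639) with AAV-shSCR and 0.051 (adjusted p = 0.593) with AAV-shA4 against the same WT mice.

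Only Eny2 among the 10 genes passed in either comparison, 1 of 10 in each, where 15.5% of all genes tested passed with AAV-shSCR (6.89% higher) and 13.6% with AAV-shA4 (5.47% higher). Past a fold change of 1.3 there was no member, against 4.02% and 3.45% of all genes, and no member passed as lower, as 8.65% and 8.11% of all genes did. At an unadjusted p under 0.05 there were 3 members in each comparison, against 28.7% and 26.6% of all genes.

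Markers of several cell types differed between the same groups. All 8 PC markers passed as lower in both SCA7 groups, with a summed level of 6844 to 7675 CPM with AAV-shSCR and 6934 to 8113 CPM with AAV-shA4 against 9822 to 11109 CPM in WT mice. Of the 5 oligodendrocyte markers, 3 passed as lower in each SCA7 group (3681 to 4432 and 4073 to 4710 CPM against 5118 to 6094 CPM). Of the 5 granule cell markers 2 passed as lower in each, and of the 5 markers of Bergmann glia and astrocytes 1 and 2 did. None of the microglia, choroid plexus and ependyma markers passed. The summed level of the choroid plexus and ependyma markers varied widely between mice of a group. It was 613 to 2792 CPM with AAV-shSCR, 41.9 to 3178 CPM with AAV-shA4 and 979 to 3663 CPM in WT mice. The part of these markers in the Eny2 result was not tested.

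The partners of Eny2 in the DUB module differed less from WT mice. Usp22, the ubiquitin protease itself, was at 242, 242, 235 and 236 CPM in WT mice and at 253, 246, 259, 251 and 246 CPM with AAV-shSCR. These groups do not overlap, and the exact permutation p was 0.00794 (two-sided), the smallest that 5 against 4 mice allow. Across all genes tested the difference did not pass, with a log2 fold change of 0.073 (SE 0.035, adjusted p = 0.179). With AAV-shA4 it was 0.083 (SE 0.035, adjusted p = 0.135), and the groups overlapped. Atxn7l3, the adaptor that activates USP22, had log2 fold changes of -0.072 (adjusted p = 0.249) with AAV-shSCR and -0.0069 (adjusted p = 0.939) with AAV-shA4.

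Among the paralogues, Atxn7l3b, whose product competes with ATXN7L3 for ENY2, was at 188 to 194 CPM with AAV-shSCR against 181.04 to 184.4 CPM in WT mice, also without overlap. Its log2 fold change was 0.058 with either vector (adjusted p = 0.161 with AAV-shSCR and 0.176 with AAV-shA4). In all, the groups of 3 of the 10 genes (Atxn7l3b, Usp22 and Eny2) did not overlap in the comparison with AAV-shSCR, against 16.8% of all genes tested, and with AAV-shA4 this held for Eny2 only, against 13.4%. Atxn7l1 was at 34.8 to 39.9 CPM with AAV-shSCR and 33.8 to 38.2 CPM with AAV-shA4, against 33.2 to 37.7 CPM in WT mice. For Atxn7l2 the ranges were 18.8 to 22.7, 18.5 to 20.3 and 19.1 to 20.97 CPM. Neither passed in either comparison.

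None of the HAT and core genes passed against WT mice in either comparison. Kat2a was at 65.2 to 71.6 CPM with AAV-shSCR, 64.9 to 69.4 CPM with AAV-shA4 and 64.2 to 67.7 CPM in WT mice. Its log2 fold changes were 0.067 (adjusted p = 0.184) and 0.023 (adjusted p = 0.712). Kat2b was at 93.3 to 99.2 CPM with AAV-shSCR and 93.0 to 98.5 CPM with AAV-shA4, against 84.9 to 95.3 CPM in WT mice, where mouse 1 at 84.9 CPM lay below the other 3 (92.8 to 95.3 CPM). The log2 fold changes of Kat2b were 0.078 (adjusted p = 0.136) and 0.055 (adjusted p = 0.324), and those of Supt20 were 0.077 (adjusted p = 0.325) and 0.034 (adjusted p = 0.715). With AAV-shSCR the unadjusted p of Kat2b was 0.0348 (edgeR) and its exact permutation p was 0.0317 (two-sided), although the groups overlapped. With AAV-shSCR 9 of the 10 genes had a log2 fold change above 0, as did 50.5% of all genes tested, with a median of 0.070 against 0.0017 over all genes. With AAV-shA4 there were 6 of 10, against 52.2% of all genes, with a median of 0.029 against 0.0061. Both comparisons share the WT mice, so a deviation of these 4 libraries enters both.

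**Figure D3:**
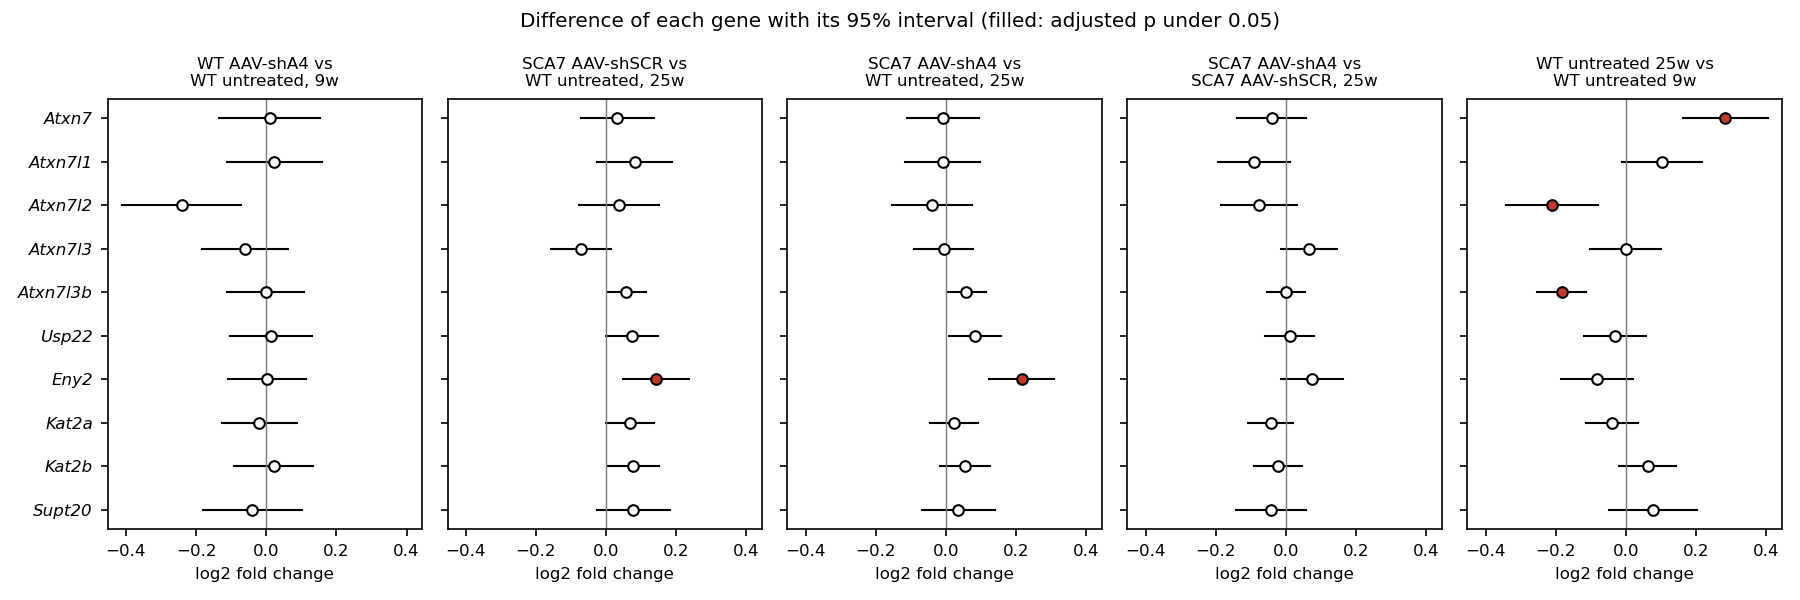
log2 fold change of each gene (point) with its 95% interval (line) in the 5 comparisons, filled where the adjusted p was under 0.05. Filled points are Eny2 against WT mice in both SCA7 groups and Atxn7, Atxn7l2 and Atxn7l3b between the time points, and the comparison of the SCA7 groups has none.

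Between AAV-shA4-treated and AAV-shSCR-treated SCA7 mice, 0 of the 10 genes passed the adjusted p and the groups of each gene overlapped, where 1.49% of all genes did not overlap. By edgeR's quasi-likelihood test 0 of all 14862 genes passed, 1222 genes (8.22%) and 0 members had an unadjusted p under 0.05, and DESeq2 gave 23 genes and 0 members at an adjusted p under 0.05. The smallest adjusted p of the 10 genes was that of Atxn7l1 (0.639), with a mean of 37.4 ± 2.24 CPM (SD, n = 5) after AAV-shSCR and 35.1 ± 1.74 CPM (SD, n = 5) after AAV-shA4, a difference of -6.13% (interval -12.5% to 0.692%). Taken over the 10 genes, the intervals reached from -12.5% to 11.8%, and 7 of 10 log2 fold changes were below 0, where 50.1% of all genes were above 0 (median -0.032, against 0.00020 over all genes). In Supt20, which has the longest CAG run of the 10 genes in the reference sequence, the difference was -2.92% (interval -9.34% to 3.95%).

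In WT mice at 9w, which tested the vector without the disease allele, 0 of the 10 genes passed, and 0.0679% of all 14733 genes did (0.0543% higher, 0.0136% lower, and 0.0543% with a fold change above 1.3). That share rests on 10 genes, which became 1 without AAV-shA4-treated mouse 2, 73 without AAV-shA4-treated mouse 3 and 2 to 9 without any of the other mice. The largest difference was that of Atxn7l2, at 17.8, 20.1 and 20.7 CPM in AAV-shA4-treated and 22.4, 24.3 and 22.4 CPM in untreated mice, groups that do not overlap. It was lower by 15.4% in treated mice on the fitted scale, a log2 fold change of -0.24 (SE 0.077, adjusted p = 0.310, unadjusted p = 0.00966, edgeR). An exact permutation test gave p = 0.1, the smallest that 3 against 3 mice allow. This was the only member with an unadjusted p under 0.05 (11.1% of all genes) or without overlap (16% of all genes), and DESeq2, with 130 genes in all at an adjusted p under 0.05, also called 0 members. With AAV-shA4 and AAV-shSCR in SCA7 mice, the same gene was at 19.4 ± 0.713 and 20.4 ± 1.43 CPM (SD, n = 5 each). In untreated WT mice at 25w it was at 19.9 ± 0.807 CPM (SD, n = 4). The 3 untreated WT mice at 9w also serve the comparison of the time points, so a deviation of these libraries enters both Atxn7l2 differences. The 5 oligodendrocyte markers had a summed level of 6573 to 6896 CPM in treated and 7228 to 7451 CPM in untreated mice, with 0 of 5 past the adjusted p and 3 of 5 at an unadjusted p under 0.05, and of the 5 choroid plexus and ependyma markers Ccdc153 passed as higher (log2 fold change 1.77) while Ttr, Folr1 and Kcnj13 were at -0.30, -0.27 and -0.19. At an unadjusted p under 0.05 there were also 2 of 5 granule cell markers (Fat2 at -0.22, Cbln1 at -0.13), 1 of 5 markers of Bergmann glia and astrocytes (Aqp4 at 0.26) and 1 of 8 PC markers (Itpr1 at 0.11). Their part in the Atxn7l2 values, and that of the lower depth of treated mice, was not tested. For the other 9 genes at 9w the log2 fold change lay between -0.060 (Atxn7l3) and 0.023 (Atxn7l1). In Supt20 it was -0.039 (interval in percent -11.8% to 7.32%), with 60.8, 71.9 and 62.3 CPM in treated and 65.9, 69.2 and 65.1 CPM in untreated mice, which overlap.

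Further subunits of SAGA and of complexes that share its subunits were described in the same fits. Of 15 other SAGA subunits, Trrap, the large scaffold that binds activators, passed as higher with AAV-shSCR (log2 fold change 0.089, SE 0.024, adjusted p = 0.0204, edgeR), with means of 174.4 ± 3.48 CPM (SD, n = 5) and, in WT mice, 164.1 ± 2.48 CPM (SD, n = 4). With AAV-shA4 Taf9b, a histone-fold subunit, was the only one to pass (0.13, SE 0.041, adjusted p = 0.0483), with means of 33.7 ± 1.46 CPM (SD, n = 5) and, in WT mice, 30.9 ± 1.04 CPM (SD, n = 4). Trrap was also higher in untreated WT mice at 25w than at 9w (0.17, SE 0.047, adjusted p = 0.0123). No other SAGA subunit of this list passed in any of these comparisons, and 1 of the 15, Taf9, with 2 to 10 counts per early library, could not be tested in the early set.

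ATAC is an acetyltransferase complex that also uses KAT2A or KAT2B. Of its 7 other subunits Yeats2, a reader of acetylated histones, passed as higher with AAV-shSCR (0.13, SE 0.029, adjusted p = 0.00455), with means of 44.6 ± 0.462 CPM (SD, n = 5) and, in WT mice, 40.6 ± 0.786 CPM (SD, n = 4). No ATAC subunit of the list passed with AAV-shA4. Zzz3 was higher at 25w than at 9w (0.11, SE 0.041, adjusted p = 0.0480). Among 5 subunits of TREX-2, the export complex that ENY2 also serves, the centrin Cetn3 passed as higher with AAV-shSCR (0.17, SE 0.041, adjusted p = 0.00798) and with AAV-shA4 (0.18, SE 0.041, adjusted p = 0.00617). Its means were 49.4 ± 2.33 and 49.7 ± 1.49 CPM (SD, n = 5 each), and that of WT mice was 43.8 ± 2.08 CPM (SD, n = 4).

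The enzymes that write or remove ubiquitin on H2B outside SAGA gave no call. Of 7 such genes, which include the USP22 relatives Usp27x and Usp51 and the ligase genes Rnf20 and Rnf40, 0 passed in any of the 5 comparisons by edgeR. The count with an unadjusted p below 0.05 was 0 of 7 with AAV-shA4 in WT mice (11.1% of all genes tested), 0 with AAV-shSCR and 0 with AAV-shA4 against WT mice at 25w (28.7% and 26.6%), 1 between the SCA7 groups (8.22%) and 1 between the time points (36.2%). In the same order the other SAGA subunits had 1 (of 14 tested), 2, 3, 5 and 6 of 15, ATAC had 0, 2, 2, 0 and 2 of 7 and TREX-2 had 0, 1, 1, 1 and 1 of 5. The 5 SAGA subunits between the SCA7 groups, named after their values were seen, were Tada2b, higher with AAV-shA4 (log2 fold change 0.12), and Taf9 (-1.19, at group means of only 0.156 and 0.363 CPM), Trrap (-0.063), Taf12 (-0.12) and Sf3b3 (-0.057), with adjusted p of 0.483 to 0.602. Medians of the 4 lists with AAV-shSCR against WT mice were 0.035 for the other SAGA subunits, 0.069 for ATAC, 0.020 for the H2B ubiquitin genes and 0.025 for TREX-2, on the log2 scale, beside the 0.0017 of all genes. With AAV-shA4 they were 0.020, 0.065, -0.00023 and 0.027.

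**Figure D4:**
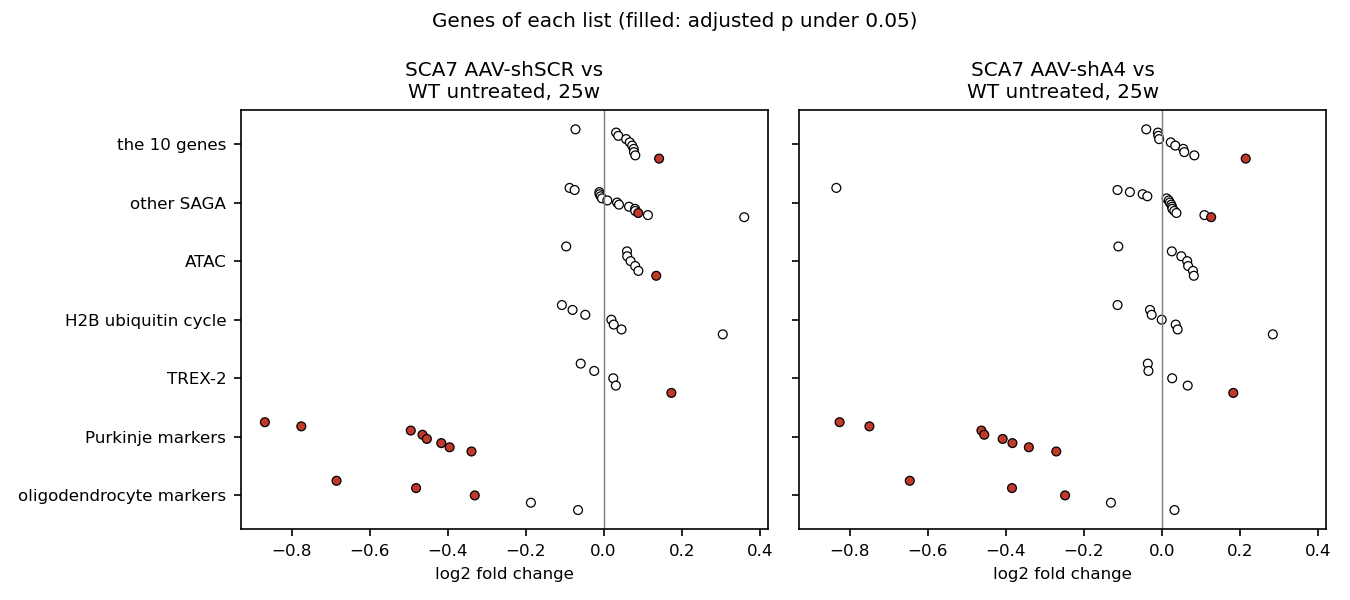
log2 fold change of each tested gene, against untreated WT mice at 25w, for the 10 genes, for the 4 lists of related complexes and for PC and oligodendrocyte markers, filled where the adjusted p was under 0.05. All 8 PC markers are filled and lie below 0 in both panels, while the filled genes of the complexes (Eny2, Trrap, Yeats2 and Cetn3 with AAV-shSCR, Eny2, Taf9b and Cetn3 with AAV-shA4) lie between 0.089 and 0.22.

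With the mean of each group removed, the 5 genes whose log2 CPM was most like that of Atxn7 over the 20 libraries were Tmem108 (Pearson's r = 0.854), Kmt5b (0.849), Tnrc6b (0.849), Tiam2 (0.848) and Ttc13 (0.840). Among the other 9 members Supt20 was most like it (r = 0.594, rank 477 of the genes tested) and Atxn7l3 least (r = -0.427). Members were not tested against other genes in this respect. These values describe 20 libraries that share a normalization, and genes are not independent of one another.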

How the data were processed

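The 10 genes, the lists and the tests were chosen with earlier results of these data known. The count table deposited by the authors holds raw reads per gene of Ensembl release 102. Per the submitters' processing notes and the methods, the authors trimmed reads with cutadapt 1.10, removed rRNA reads with Bowtie2 2.2.8, mapped the rest to mm10 with STAR 2.5.3a and counted with HTSeq 0.6.1p1; single reads were 50 bases long. Groups follow the sample labels. Symbols, types, lengths and sequences come from GENCODE M21 (GRCm38), which has 55141 of 55401 genes; 260 were left out. For the protein-coding genes, edgeR 4.0.16 (R 4.3.3) was run on the counts with TMM factors, the filter filterByExpr at its minimum count of 10 and minimum total of 15, and quasi-likelihood tests, adjusted by Benjamini-Hochberg over all genes tested. The 6 early and the 14 late libraries were fitted separately, all 20 for the time points. Percent changes are transformed log2 fold changes. CPM were scaled by TMM over the 20 libraries. Exact permutation tests used log2 of CPM plus 0.1 and are not adjusted. P-values of edgeR set the difference between groups against the spread between mice.

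The 10 genes are named in every comparison; of the lists of related complexes, each gene that passed is named (at most 4 a list and comparison), marker genes are given by counts, and the 5 genes most like Atxn7 are named. Alternatives were DESeq2 1.42.0, its size factors, no filter, all gene types, robust estimation, other sets of libraries, a block on replicate number, and each mouse left out. The methods were tested on simulated data. The authors' gene set enrichment and protein data were not analysed here.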

Additional observations from a re-analysis of the deposited data

Results flagged for a closer look

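In the 30 pairs of gene and group with 4 or 5 mice, the gap of the highest or lowest mouse to its nearest neighbour was large relative to the whole range (Dixon's 95% criterion) in 2, and chance flags about 1 in 20 groups. Atxn7l1 was at 38.2 CPM in AAV-shA4-treated SCA7 mouse 2, with the next mouse at 34.8 CPM. Without this mouse its log2 fold change between AAV-shA4 and AAV-shSCR was -0.12 (adjusted p = 0.559, edgeR) in place of -0.091. Atxn7l3 was at 184 CPM in untreated WT mouse 1 at 25w, with the next mouse at 167.4 CPM. Without this mouse the log2 fold change of Atxn7l3 was -0.034 (adjusted p = 0.636) in place of -0.072 with AAV-shSCR, and 0.031 (adjusted p = 0.666) in place of -0.0069 with AAV-shA4.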

How the results depend on the processing

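Of 350 values of the 10 genes under other settings, 336 kept their direction and their side of the threshold, 13 changed sign and 1 lost its call. The sign changes were all of log2 fold changes near 0: Atxn7l3b with AAV-shA4 in WT mice (0.0024 with DESeq2 size factors and with the DESeq2 test, 0.0016 without the filter, 0.0019 with all gene types, 0.00049 with all 20 libraries), Atxn7l3b between the SCA7 groups (0.00057 with DESeq2 size factors, 0.00049 with the DESeq2 test, 0.0018 with all gene types, 0.0014 with the compared groups only) and Atxn7l3 between the time points (0.0014 with DESeq2 size factors and with the DESeq2 test, 0.00075 with the compared groups only). Without a limit on the fold change, in place of 0 members past both limits, there were 1, 1 and 3 against WT mice with AAV-shSCR, with AAV-shA4 and between the time points. With a mouse left out, 34 of 410 values changed sign, none of them in a gene that had passed in that comparison, and 9 lost their call. The ranges of the values that changed sign were, with AAV-shA4 in WT mice, -0.028 to 0.074 (Atxn7), -0.0050 to 0.059 (Atxn7l1), -0.022 to 0.036 (Atxn7l3b), -0.023 to 0.049 (Usp22), -0.019 to 0.034 (Eny2), -0.036 to 0.011 (Kat2a), -0.0018 to 0.058 (Kat2b) and -0.11 to 0.0054 (Supt20), for Atxn7l2 with AAV-shSCR -0.0024 to 0.066, with AAV-shA4 against WT mice -0.037 to 0.019 (Atxn7), -0.042 to 0.021 (Atxn7l1) and -0.028 to 0.031 (Atxn7l3), between the SCA7 groups -0.011 to 0.017 (Atxn7l3b) and -0.025 to 0.031 (Usp22), and between the time points -0.039 to 0.013 (Atxn7l3). Across the same analyses the number of members past the adjusted p with AAV-shSCR ranged from 0 to 1.

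Same-numbered mice did not deviate together in every pair (correlations of -0.226 to 0.491 over the 5 comparisons). In each comparison of SCA7 with WT mice, 2 of the 4 SCA7 mice with a same-numbered WT mouse deviated most like that mouse. The numbers were not taken as pairs in the main fits, and whether they mark a shared step was not tested. With the replicate number as a block, Eny2 with AAV-shSCR did not pass (0.12, adjusted p = 0.101), leaving 0 members in place of 1, Atxn7l1 with AAV-shA4 changed sign to 0.0052 (against WT mice), and no other call changed. The causes of these changes were not tested.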
